A study of Homo sapiens with 24 samples.

Results

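The genes described here are 10 feedback and output genes of the ERK pathway, taken by symbol from the 48162 genes listed for each library. They are DUSP4, DUSP5, DUSP6, SPRY2, SPRY4, SPRED1, SPRED2, ETV4, ETV5 and PHLDA1. All 10 had a row in every library and passed the filter on low values in both cell lines. No measured value enters the rule, which is a list of symbols, but the symbols were chosen with earlier results of these data known. In hg19, DUSP5 lies on chromosome 10 (112257596 to 112271302, plus strand), DUSP6 on chromosome 12 (89741009 to 89747048, minus strand) and PHLDA1 on chromosome 12 (76419227 to 76427712, minus strand).

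RNA was sequenced from 2 pancreas lines under 4 treatments of 24 h, with 3 libraries in each of the 8 groups and 24 in all. The lines were hTERT-HPNE (here HPNE), immortalised with telomerase, and HPDE-H6c7 (here HPDE), an immortalised duct epithelial line. Both were grown in keratinocyte serum-free medium with penicillin and streptomycin, and no group carried a genetic change of its own. Untreated cells received fresh serum-free medium. The negative control received leftover culture medium from the vesicle isolation, called residual medium below. The other groups received 1e10 extracellular vesicles (EVs) per well, from PANC-1, a pancreatic cancer line, or from cells labelled PPCL-68. The design text calls the replicates biological triplicates. It does not say how the cultures were separated, so p-values measure the spread between these samples.

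ERK is the last kinase of the cascade that runs from growth factor receptors through RAS, RAF and MEK. Active ERK raises transcription of a small set of genes, several of which encode its own inhibitors, and their RNA is widely read as a gauge of pathway output. The dual-specificity phosphatases DUSP4, DUSP5 and DUSP6 remove the activating phosphates of mitogen-activated kinases. Sprouty proteins (SPRY2, SPRY4) and the related SPRED1 and SPRED2 act upstream, between receptor and RAF. ETV4 and ETV5 are transcription factors of the ETS family, and PHLDA1 is a pleckstrin-homology-like protein induced by growth factors.

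ETS factors are among the nuclear targets of ERK, so the promoters were searched for their core motif. RefSeq promoter sequences (GRCh38.p14) were matched for 6 of the 10 genes, DUSP6, SPRY2, SPRY4, SPRED1, SPRED2 and PHLDA1, in 9 windows of the 250 bases before a transcription start. The core motif CGGAAG, on either strand, was present in 2 of the 6 genes, which are shown because they hold it. Capitals mark the match, and each sequence is written 5′ to 3′ on the gene's own strand.
DUSP6, chr12:89352502-89352751, minus strand: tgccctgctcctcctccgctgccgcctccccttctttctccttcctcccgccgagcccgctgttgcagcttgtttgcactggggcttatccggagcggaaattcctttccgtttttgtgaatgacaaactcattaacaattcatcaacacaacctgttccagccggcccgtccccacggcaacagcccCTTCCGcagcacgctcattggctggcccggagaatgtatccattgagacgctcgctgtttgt
PHLDA1, chr12:76031777-76032026, minus strand: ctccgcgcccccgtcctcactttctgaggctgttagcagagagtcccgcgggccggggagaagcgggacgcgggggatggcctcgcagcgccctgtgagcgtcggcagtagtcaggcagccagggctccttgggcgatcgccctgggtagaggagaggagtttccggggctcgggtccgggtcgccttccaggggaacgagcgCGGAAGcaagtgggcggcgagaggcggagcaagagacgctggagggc
The DUSP6 match reads CTTCCG, the motif on the opposite strand, and lies 62 to 57 bases before the start. In PHLDA1 the match reads CGGAAG and lies 47 to 42 bases before the start. Among 35116 promoter windows of the same length, 5788 (16.5%) held this motif. That share is by window, and by window 2 of the 9 here held it. So few windows cannot tell this count from the share. The longer ETS motif ACCGGAAGT, which contains the core, was in 0 of the 6 genes and in 0.814% of all windows. The AP-1 motif TGANTCA (6.57% of all windows) and the cyclic AMP response element TGACGTCA (1.65%) were in none of the 6 either. A match describes letters in a window and not a bound site.

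Between 29209142 and 46490312 reads per library were assigned to genes, and the 10 genes had at least 148 reads each in every library. HPDE libraries expressed the 6 duct epithelium markers at a summed 1431 to 3498 FPKM (reads per gene, corrected for gene length and library total). In HPNE the same sum was 4.56 to 12.8 FPKM, with EPCAM at no more than 12 reads, and 6 mesenchymal markers such as FN1 summed to 8537 to 12563 FPKM. The HPNE cells, labelled as normal pancreas cells, thus held EPCAM, CDH1 and KRT19 at no more than 0.162, 0.112 and 0.905 FPKM. KRT7, KRT8 and KRT18 reached 1.57, 6.28 and 5.13 FPKM in HPNE. Acinar, endocrine and endothelial markers summed to at most 0.351 FPKM in any library, and leukocyte markers to at most 2.08. The endothelial sum covers 3 of 4 listed markers, as PECAM1 had no row. In HPNE 1 library of each group stood apart from the other pair, 2.05 to 3.31 times as far from them as they were from each other (1.08 to 1.24 times in HPDE). These were untreated replicate 3, residual-medium replicate 3, PANC-1 EV replicate 1 and PPCL-68 EV replicate 1. They were picked on whole-library distance with the expression values known. Without them a pair of libraries is left in each HPNE group. Dropping the most distant library narrows the spread within a group by the choice itself, so more calls without them are partly built in. For each comparison that uses HPNE, the number of genes called is given below with and without these 4 libraries, and genes whose call changed are named with their value without them.

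**Figure D1:**
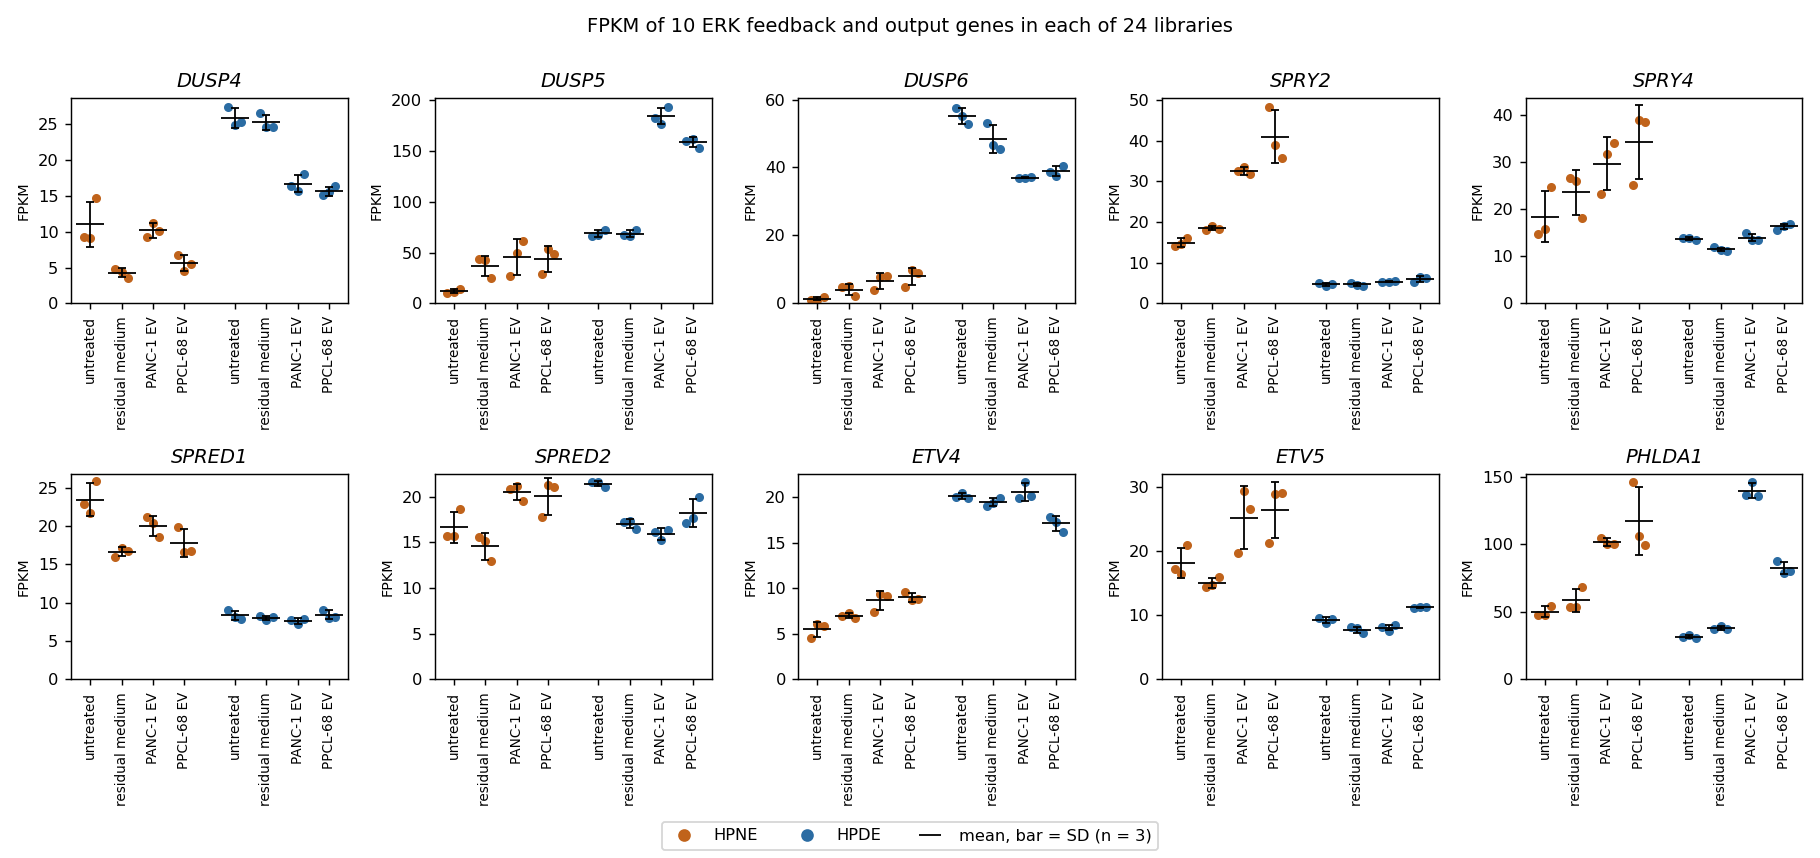
FPKM of each of the 10 genes (1 panel a gene, linear axes that start at 0 and differ between panels) in the 24 libraries, by line and treatment, with a point for each library, a line at the group mean and a bar for the SD (n = 3). DUSP6 sat at 1.09 to 9.93 FPKM in HPNE and at 36.8 to 57.5 FPKM in HPDE.

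The lines differed most in DUSP6, the cytoplasmic phosphatase specific for ERK. Untreated HPNE libraries held DUSP6 at 1.09, 1.16 and 1.90 FPKM, and untreated HPDE libraries at 57.5, 55.3 and 52.8 FPKM. No library of either line, under any treatment, reached the range of the other line. On the log2(FPKM + 1) scale the untreated lines differed by 4.58 ± 0.24 (SE), a ratio of mean FPKM of 40.0 (limma, Benjamini-Hochberg adjusted p = 2.84e-13). FPKM ratios between the lines depend on scaling. The 10 genes with the most reads in a library held 14.5 to 18.3% of its reads in HPNE and 4.33 to 5.21% in HPDE. Median-of-ratios size factors moved the median difference of all genes between the untreated lines by -0.31. DUSP5, the ERK phosphatase of the nucleus, had a mean of 68.8 ± 3.24 FPKM (SD, n = 3) in untreated HPDE and 12.2 ± 2.09 in untreated HPNE, and DUSP4, a nuclear phosphatase with a broader range of targets, 25.9 ± 1.38 and 11.0 ± 3.19.

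Sprouty and SPRED genes ran the other way, except SPRED2. Untreated HPNE libraries held SPRY2 at 14.2, 14.5 and 16.1 FPKM and untreated HPDE libraries at 5.09, 4.37 and 4.76 FPKM, a log2 difference of -1.47 (HPDE minus HPNE). SPRED1 stood at 23.4 ± 2.15 FPKM in untreated HPNE and 8.36 ± 0.605 in untreated HPDE, a difference of -1.38. The ETS factors split, with ETV4 higher in HPDE (20.1 ± 0.324 against 5.50 ± 0.818 FPKM) and ETV5 higher in HPNE (18.2 ± 2.38 against 9.30 ± 0.474). PHLDA1 stood at 50.2 ± 3.91 FPKM in untreated HPNE and 31.7 ± 0.873 in untreated HPDE. In all, 9 of the 10 genes passed the test between untreated lines, 5 higher and 4 lower in HPDE. Of the 12377 genes tested 83.8% passed, so a difference between the lines was the rule for any gene. Among all genes tested, 6935 were called higher and 3434 lower in HPDE. The median difference was 0.376 for all genes tested and -0.0035 for the 10 genes. When the 4 libraries apart were left out 10 passed, 5 in each direction (87.8% of genes tested). The calls for SPRED2 and SPRY4 changed with the setting. SPRED2 was higher in HPDE by 0.35 (adjusted p = 0.000546), but by 0.00 with median-of-ratios size factors and by -0.05 with voom on the recovered reads. SPRY4 differed by -0.36 (adjusted p = 0.0704) and passed with size factors (-0.70, adjusted p = 0.00188), which moved the median of all genes by -0.31. It also passed with voom (-0.79), without the 4 libraries apart (-0.14, adjusted p = 0.0175), and in 4 of 24 omissions of a single library (HPNE untreated replicate 1 or 2, residual-medium replicate 3 or PPCL-68 EV replicate 1).

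By mean FPKM the untreated HPNE order was PHLDA1, SPRED1, SPRY4, ETV5, SPRED2, SPRY2, DUSP5, DUSP4, ETV4 and DUSP6. From SPRED1 to DUSP4 every neighbour in this order overlapped the next in its library values. In untreated HPDE the order was DUSP5, DUSP6, PHLDA1, DUSP4, SPRED2, ETV4, SPRY4, ETV5, SPRED1 and SPRY2, and only ETV5 and SPRED1 overlapped as neighbours. FPKM is per gene length, which allows these levels to be set side by side.

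In HPDE, PANC-1 EVs changed the phosphatase genes in opposite directions. DUSP5 stood at 67.3, 66.0 and 72.4 FPKM in residual medium and at 183, 177 and 193 FPKM with PANC-1 EVs. Every vesicle library was above every residual-medium library, a 2.68-fold rise (log2 difference 1.41 ± 0.05, adjusted p = 2.19e-11). DUSP6 went the other way, from 53.2, 46.7 and 45.4 FPKM to 37.0, 36.8 and 37.1. The groups did not overlap, and DUSP6 fell by 0.38 ± 0.06 on the log2 scale (adjusted p = 3.58e-05). DUSP4 fell by 0.57 ± 0.06, from 26.6, 24.7 and 24.6 FPKM to 16.4, 15.8 and 18.0 (adjusted p = 9.41e-07). In bulk libraries such as these, a smaller share of cells that express a gene and less RNA per expressing cell cannot be told apart.

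PPCL-68 EVs gave HPDE cells the same split between phosphatases. DUSP5 was 160, 162 and 153 FPKM, 2.31-fold above residual medium (log2 difference 1.20 ± 0.05, adjusted p = 7.47e-11). DUSP6 was 38.8, 37.5 and 40.5 FPKM and DUSP4 15.1, 15.6 and 16.4 FPKM. Both lay below every residual-medium library, and they fell by 0.31 and 0.66 on the log2 scale (adjusted p = 0.000196 and 1.4e-07). The comparisons with PANC-1 EVs and with PPCL-68 EVs share the same residual-medium libraries, so their likeness is not independent. The ratio of DUSP5 to DUSP6 FPKM, which needs no scaling between libraries, was 1.15 to 1.37 in untreated HPDE libraries and 1.27 to 1.60 in residual medium. It was 4.81 to 5.20 with PANC-1 EVs and 3.78 to 4.32 with PPCL-68 EVs. In HPNE the ratio was 7.67 to 10.04 in untreated libraries, 8.39 to 11.5 in residual medium, 6.43 to 7.59 with PANC-1 EVs and 5.37 to 5.88 with PPCL-68 EVs. Vesicle libraries thus lay above residual medium in HPDE and below it in HPNE.

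**Figure D2:**
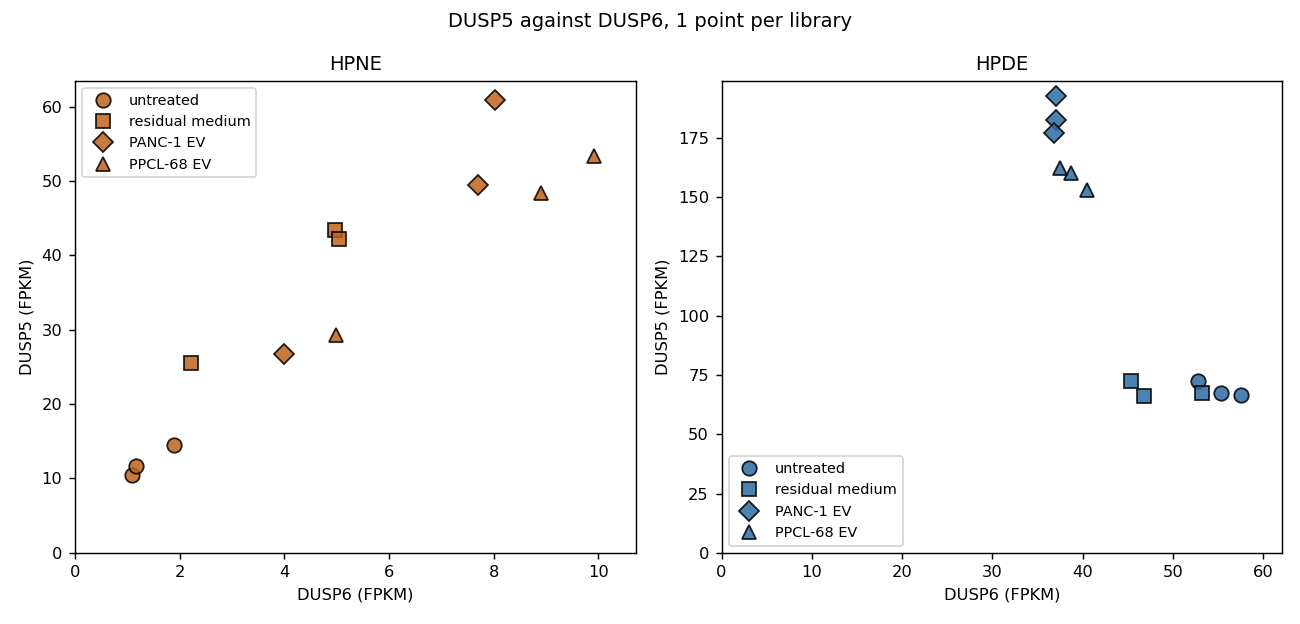
DUSP5 against DUSP6 FPKM in each of the 24 libraries, with 1 panel a line, marker shapes for the treatments, and linear axes from 0 that differ between panels. HPDE libraries with vesicles lie at higher DUSP5 and lower DUSP6 than the other HPDE libraries, while in HPNE both genes were lowest in the untreated libraries.

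PHLDA1 was the gene with the largest response of the 10 to PANC-1 EVs in HPDE. Residual-medium libraries held 37.4, 39.8 and 37.2 FPKM and PANC-1 EV libraries 137, 146 and 136 FPKM. That was a 3.66-fold rise (log2 difference 1.85 ± 0.05, adjusted p = 2.41e-12). With PPCL-68 EVs the libraries held 87.7, 78.8 and 80.6 FPKM, 2.16-fold above residual medium and below every PANC-1 EV library.

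Of the upstream inhibitors in HPDE, SPRY4 passed with both vesicle sources and SPRY2 with PPCL-68 EVs. SPRY4 rose by 0.26 ± 0.05 with PANC-1 EVs and by 0.48 ± 0.05 with PPCL-68 EVs (adjusted p = 0.00034 and 9.21e-07), from a mean of 11.4 ± 0.399 FPKM in residual medium to 13.9 ± 0.758 and 16.3 ± 0.593. Its untreated mean, 13.7 ± 0.259 FPKM, was close to that with PANC-1 EVs (log2 difference 0.02, adjusted p = 0.772). SPRY2 rose by 0.30 ± 0.07 with PPCL-68 EVs, to 5.98 ± 0.647 FPKM (adjusted p = 0.00267). With PANC-1 EVs it differed by 0.17 ± 0.07 (adjusted p = 0.055), and passed with size factors (adjusted p = 0.0246), with voom (0.0346), with the groups compared alone (0.0422), and without PPCL-68 EV replicate 1 or residual-medium replicate 1. SPRED1 and SPRED2, which bring the RAS inhibitor neurofibromin to the membrane, passed in neither comparison with residual medium, with differences between -0.09 and 0.09.

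The ETS factors answered PPCL-68 EVs in HPDE and did so in opposite directions. ETV5 stood at 8.13, 7.98 and 7.26 FPKM in residual medium, at 8.27, 7.61 and 8.44 with PANC-1 EVs, and at 11.1, 11.3 and 11.3 with PPCL-68 EVs. The PPCL-68 EV libraries were above all others of the line, and ETV5 rose by 0.48 ± 0.06 over residual medium (adjusted p = 3.5e-06). ETV4 stood at 19.0, 19.4 and 19.9 FPKM in residual medium and at 17.9, 17.3 and 16.2 with PPCL-68 EVs. It fell by 0.18 ± 0.05 (adjusted p = 0.00466). ETV4 overlaps DHX8 on the opposite strand, a gene with up to 3476 reads in these libraries, and a library kit without strand cannot tell such reads apart.

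Against residual medium, 5 of the 10 genes passed with PANC-1 EVs in HPDE, 3 higher and 2 lower, where 63.3% of 12223 genes tested passed (28.2% higher, 35.1% lower). With PPCL-68 EVs 8 passed, 5 higher and 3 lower, where 67.7% of genes tested passed (31.3% higher, 36.4% lower). The counts are near those shares. The median difference of the 10 was 0.06 and 0.19, and that of all genes tested was -0.04 and -0.03. No call among them was lost when any 1 of the 12 HPDE libraries was left out, or under the other settings tried.

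Markers of the duct epithelium itself moved in the same HPDE comparisons. Of the 6, 6 fell with PANC-1 EVs and 5 with PPCL-68 EVs (median differences -0.74 and -0.99). Their summed level was 3122 to 3498 FPKM in residual medium, 1549 to 1811 with PANC-1 EVs and 1431 to 1444 with PPCL-68 EVs, and 2763 to 3005 in untreated cells. The keratin gene KRT8 stood at 657 ± 16.5 FPKM in residual medium, 209 ± 15.1 with PANC-1 EVs and 158 ± 0.994 with PPCL-68 EVs. EPCAM stood at 187 ± 2.37, 171 ± 6.45 and 181 ± 10.6 FPKM. The part of this shift in the changes of the 10 genes was not tested.

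Direct comparison of the vesicle sources in HPDE gave 6 calls among the 10 genes, where 50.1% of genes tested passed. DUSP5, PHLDA1 and ETV4 were higher with PANC-1 EVs, by 0.21 ± 0.05, 0.76 ± 0.05 and 0.25 ± 0.05 (adjusted p = 0.0027, 2.86e-08 and 0.000621). ETV5, SPRY4 and SPRED2 were higher with PPCL-68 EVs, by differences of -0.43, -0.21 and -0.18 when taken as PANC-1 minus PPCL-68. SPRED2 no longer passed without PANC-1 EV replicate 2 or PPCL-68 EV replicate 3 (adjusted p = 0.0534 and 0.063). DUSP4 and DUSP6, which fell with both sources, differed between them by 0.09 ± 0.06 and -0.07 ± 0.06 (adjusted p = 0.218 and 0.298).

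**Figure D3:**
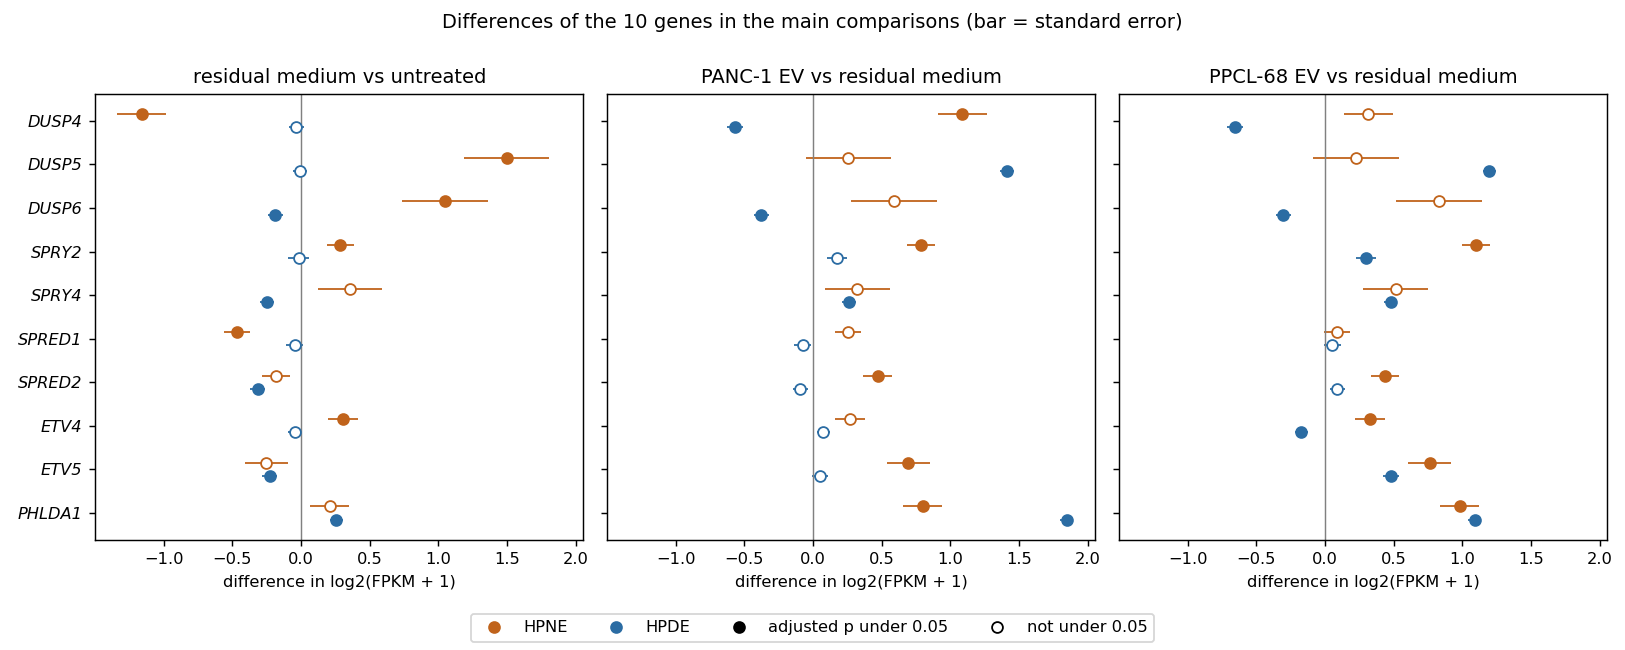
Difference in log2(FPKM + 1) of each of the 10 genes in 3 comparisons, with bars of 1 standard error and filled points where the adjusted p was under 0.05. With PANC-1 EVs, DUSP4 lies at 1.09 in HPNE (orange) and at -0.57 in HPDE (blue), both filled.

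Residual medium by itself changed the phosphatase genes of HPNE cells. DUSP5 stood at 10.5, 11.7 and 14.5 FPKM in untreated HPNE and at 43.4, 42.3 and 25.5 in residual medium. The groups did not overlap, and the mean rose 3.03-fold (log2 difference 1.50 ± 0.31, adjusted p = 0.00388). DUSP6 rose from 1.09, 1.16 and 1.90 FPKM to 4.96, 5.04 and 2.21, with replicate 3 of each group lying nearest the other group. Its difference of 1.05 ± 0.31 (adjusted p = 0.0199) was not past the threshold without replicate 1 or 2 of either group (0.0666 to 0.0784) or without the filter on low values (0.0557). DUSP4 fell from 9.25, 9.13 and 14.7 FPKM to 4.83, 4.46 and 3.60, a 2.57-fold decrease (log2 difference -1.16 ± 0.18, adjusted p = 0.000834).

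Among the other genes, SPRED1 fell by 0.47 ± 0.09 in residual medium (23.4 ± 2.15 to 16.6 ± 0.603 FPKM, adjusted p = 0.00312). SPRY2 and ETV4 rose by 0.29 and 0.31 (adjusted p = 0.0389 and 0.0409). SPRY2 was not past the threshold in 8 of 12 omissions of a single library (each of the residual-medium libraries, untreated replicates 1 and 2, PANC-1 EV replicates 2 and 3, and PPCL-68 EV replicate 2), without the filter, or with the replicate number as a block (0.0574). ETV4 was not past it in 5 of 12 omissions (residual-medium replicates 1 and 2, untreated replicate 1, and PPCL-68 EV replicates 2 and 3), without the filter, or with the groups compared alone. In all 6 of 10 passed, 4 higher and 2 lower, where 43.9% of 11503 genes tested passed (18.7% higher, 25.2% lower). Size factors moved the median of all genes by 0.11 in this comparison, and the 6 differences kept their signs. When the libraries apart were left out 9 passed, 6 higher and 3 lower (71.7% of genes tested). The added calls were SPRY4 (0.75, adjusted p = 6.87e-07, against 0.36 with all libraries), ETV5 (-0.19, 0.014) and PHLDA1 (0.16, 0.0104), and DUSP5 and DUSP6 differed by 1.86 and 1.50.

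In HPDE the same comparison did not pass for DUSP5, at 68.8 ± 3.24 FPKM untreated and 68.6 ± 3.38 in residual medium, or for DUSP4, at 25.9 ± 1.38 and 25.3 ± 1.10 FPKM. PHLDA1 rose by 0.26 ± 0.05 and SPRED2, SPRY4 and ETV5 fell by 0.31, 0.25 and 0.23 (adjusted p = 0.00238, 0.00129, 0.00371 and 0.0125). DUSP6 fell by 0.19 ± 0.06 (adjusted p = 0.0288), with overlapping groups. DUSP6 no longer passed without residual-medium replicate 2 or 3 or untreated replicate 1 or 2, and ETV5 without residual-medium replicate 3 or untreated replicate 1. Of the 10 genes 5 passed, 1 higher and 4 lower, where 20.0% of genes tested passed (9.93% higher, 10.1% lower). The median difference of the 10 was -0.05 in HPDE and 0.25 in HPNE, beside -0.01 and -0.05 for all genes tested.

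With vesicles, HPNE cells showed SPRY2 and PHLDA1 above residual medium. SPRY2 stood at 18.0, 18.9 and 18.4 FPKM in residual medium, at 32.5, 33.5 and 31.7 with PANC-1 EVs and at 48.2, 38.9 and 35.7 with PPCL-68 EVs. No vesicle library overlapped the residual-medium group, and SPRY2 rose by 0.79 ± 0.10 and 1.10 ± 0.10 (adjusted p = 0.0007 and 4.52e-05). PHLDA1 stood at 53.8, 53.4 and 68.2 FPKM in residual medium, at 105, 100.2 and 100.1 with PANC-1 EVs, and at 146, 106 and 99.6 with PPCL-68 EVs. It rose by 0.80 ± 0.14 and 0.98 ± 0.14 (adjusted p = 0.00352 and 0.000505).

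ETV5 and SPRED2 also rose with both vesicle sources in HPNE. ETV5 went from a mean of 15.1 ± 0.790 FPKM in residual medium to 25.3 ± 4.98 with PANC-1 EVs and 26.5 ± 4.42 with PPCL-68 EVs (log2 differences 0.69 ± 0.16 and 0.76 ± 0.16, adjusted p = 0.0101 and 0.00339). SPRED2 went from 14.6 ± 1.46 FPKM to 20.5 ± 0.864 and 20.0 ± 1.99 (0.47 ± 0.10 and 0.43 ± 0.10, adjusted p = 0.0089 and 0.00704). DUSP4 rose with PANC-1 EVs, to 9.24, 11.3 and 10.2 FPKM, by 1.09 ± 0.18 (adjusted p = 0.0023), which placed it at the level of untreated cells (difference -0.07, adjusted p = 0.798). With PPCL-68 EVs DUSP4 was 6.76, 4.53 and 5.55 FPKM, overlapping residual medium. ETV4 rose by 0.32 ± 0.11 with PPCL-68 EVs (adjusted p = 0.035). That call was lost without any 1 of the 6 libraries compared (0.0641 to 0.0946), without the filter and with size factors.

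DUSP5 and DUSP6 did not pass against residual medium in HPNE. DUSP5 was 26.8, 49.5 and 60.9 FPKM with PANC-1 EVs and 29.4, 53.3 and 48.4 with PPCL-68 EVs, both ranges overlapping 25.5 to 43.4 in residual medium. DUSP6 was 3.99, 7.70 and 8.03 FPKM and 4.99, 9.93 and 8.90, with differences of 0.59 ± 0.31 and 0.83 ± 0.31 (adjusted p = 0.182 and 0.0539). In each of these 3 groups the low value came from the library that stood apart. Leaving out the 4 such libraries, DUSP6 differed from residual medium by 0.56 and 0.79 (adjusted p = 0.00012 and 8.13e-06) and DUSP5 by 0.35 and 0.24 (0.00767 and 0.0396). SPRY4, at 23.2, 31.7 and 33.9 FPKM with PANC-1 EVs and 25.1, 38.9 and 38.3 with PPCL-68 EVs, likewise passed without them (0.31 and 0.54, adjusted p = 0.000707 and 1.18e-05). The differences of DUSP6 and SPRY4 were close to those with all libraries, and dropping the libraries apart narrows the spread by choice. Without PPCL-68 EV replicate 1 alone, or PANC-1 EV replicate 1 alone, DUSP6 passed with PPCL-68 EVs (0.0233 to 0.0362).

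In all, 5 of the 10 genes passed with each vesicle source in HPNE and all were higher. Of the 11503 genes tested 24.2% passed with PANC-1 EVs (13.9% higher, 10.3% lower) and 39.9% with PPCL-68 EVs (20.3% higher, 19.7% lower). The 10 genes had median differences of 0.53 and 0.47, and all genes tested had 0.02 and 0.00. Without the 4 libraries apart, 10 genes passed with PANC-1 EVs and 8 with PPCL-68 EVs, where 59.1% and 65.7% of all genes tested passed. SPRED1 (0.22) and ETV4 (0.34) were the other added calls with PANC-1 EVs. The vesicle sources differed in 1 of the 10 genes, DUSP4, higher with PANC-1 EVs by 0.77 ± 0.18 (adjusted p = 0.0317), where 5.47% of genes tested passed. DUSP4 was not past the threshold without any 1 of the PANC-1 EV libraries or without PPCL-68 EV replicate 2 or 3, without the filter, or with the replicate number as a block (0.0548). In this pair of groups the same-numbered libraries deviated together, so the blocked value is given. Replicate 1 of both groups was a library apart, which by itself can make them deviate together. With the 4 such libraries left out 5 genes passed (36.5% of genes tested), DUSP4 (0.96) and SPRED1 (0.21) higher with PANC-1 EVs and SPRY2, SPRY4 and DUSP6 lower (-0.19, -0.23 and -0.23).

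Against untreated cells, which differ from vesicle-treated cells also in the residual medium, DUSP5 and DUSP6 passed in HPNE with both vesicle sources. DUSP6 was 4.76-fold higher with PANC-1 EVs and 5.75-fold higher with PPCL-68 EVs, and DUSP5 3.74-fold and 3.57-fold (adjusted p between 0.000808 and 0.00507). With PANC-1 EVs 5 genes passed, all higher (21.1% of genes tested passed). SPRED2 and ETV5, which passed against residual medium, differed here by 0.29 and 0.44 (adjusted p = 0.065 and 0.0644). With PPCL-68 EVs 9 passed, 7 higher and 2 lower (42.5%), the lower ones being DUSP4 and SPRED1. Of these, ETV5 was lost without PPCL-68 EV replicate 2 or 3 or untreated replicate 1 or 2, and SPRY4 without PPCL-68 EV replicate 2 or untreated replicate 1. Without the 4 libraries apart 9 genes passed with PANC-1 EVs, 8 higher and 1 lower, and 10 with PPCL-68 EVs, 8 higher and 2 lower (62.7% and 69.6% of genes tested). The added calls were SPRY4, SPRED2 and ETV5 (1.06, 0.35 and 0.70) and SPRED1 (-0.18) with PANC-1 EVs, and SPRED2 (0.41) with PPCL-68 EVs. In HPDE 6 genes passed with PANC-1 EVs, 2 higher and 4 lower (60.6%), of which ETV5 was lost with size factors (0.0505) and without PANC-1 EV replicate 2 or untreated replicate 1. There were 9 with PPCL-68 EVs, 5 higher and 4 lower (66.3%). SPRED1 did not pass with PPCL-68 EVs, at 8.42 ± 0.569 against 8.36 ± 0.605 FPKM.

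The responses of the lines were compared directly, as the HPDE difference minus the HPNE difference in 1 fit of all 24 libraries. For PANC-1 EVs against residual medium 8 of the 10 genes passed (21.2% of genes tested passed). The response of DUSP4 was lower in HPDE by 1.65 ± 0.20 on the log2 scale (adjusted p = 8.04e-06), as it fell in HPDE and rose in HPNE. DUSP5 and PHLDA1 responded more in HPDE, by 1.15 ± 0.34 and 1.05 ± 0.15 (adjusted p = 0.019 and 8.11e-05). SPRY2, SPRED2 and ETV5 responded more in HPNE. DUSP6 differed by -0.97 ± 0.34 (adjusted p = 0.0462), a call lost in 17 of 24 single-library omissions and under 5 other settings (adjusted p up to 0.111). For DUSP5 the call was lost without HPNE residual-medium replicate 1 or 2, without the filter (0.0512) and with the groups compared alone (0.0528). With the libraries apart left out 9 genes passed (46.7% of genes tested), ETV4 being added (-0.27).

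For PPCL-68 EVs 6 of the 10 genes passed (25.7% of genes tested). SPRY2 rose less in HPDE than in HPNE, by a difference of -0.80 ± 0.12 (adjusted p = 8.55e-05). DUSP4 differed by -0.97 ± 0.20 (0.00108), having fallen in HPDE and not passed in HPNE (0.31), and ETV4 by -0.50 ± 0.12 (0.00382), having fallen in HPDE and risen in HPNE. DUSP6 differed by -1.13 ± 0.34 (0.0172). DUSP5 differed by 0.97 ± 0.34 (0.0385), a call lost in 9 of 24 omissions, each HPDE library compared among them, and without the filter (0.0949). PHLDA1 did not pass here (0.11 ± 0.15, adjusted p = 0.641). For residual medium against untreated cells 5 genes passed (38.1% of genes tested), among them DUSP5 and DUSP6, higher in HPNE by differences of -1.50 ± 0.34 and -1.24 ± 0.34 (adjusted p = 0.00217 and 0.00791). Without the 4 libraries apart 7 genes passed for PPCL-68 EVs (45.8% of genes tested), with ETV5 added (-0.46). For residual medium 8 passed (61.9%), SPRY2 (-0.36), SPRY4 (-0.996) and SPRED2 (-0.29) being added.

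Across the 12 libraries of a line the 10 genes varied together in different ways. The log2(FPKM + 1) values of DUSP5 and DUSP6 had a Pearson correlation of 0.957 in HPNE and -0.934 in HPDE. DUSP4 and DUSP6 had 0.928 in HPDE and -0.270 in HPNE. DUSP5 and PHLDA1 had 0.966 in HPDE and 0.582 in HPNE, where PHLDA1 went with SPRY2 (0.980). These are descriptions over 12 libraries that share 4 treatments, and in HPNE the libraries apart. The tested genes most like DUSP6 by the same measure were PAK2 (0.989), ABL2, NEDD4, COBLL1 and WDR41 in HPNE, and FZD2 (0.985), PPP1R3D, PARD6G, SHROOM3 and ALKBH5 in HPDE.

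**Figure D4:**
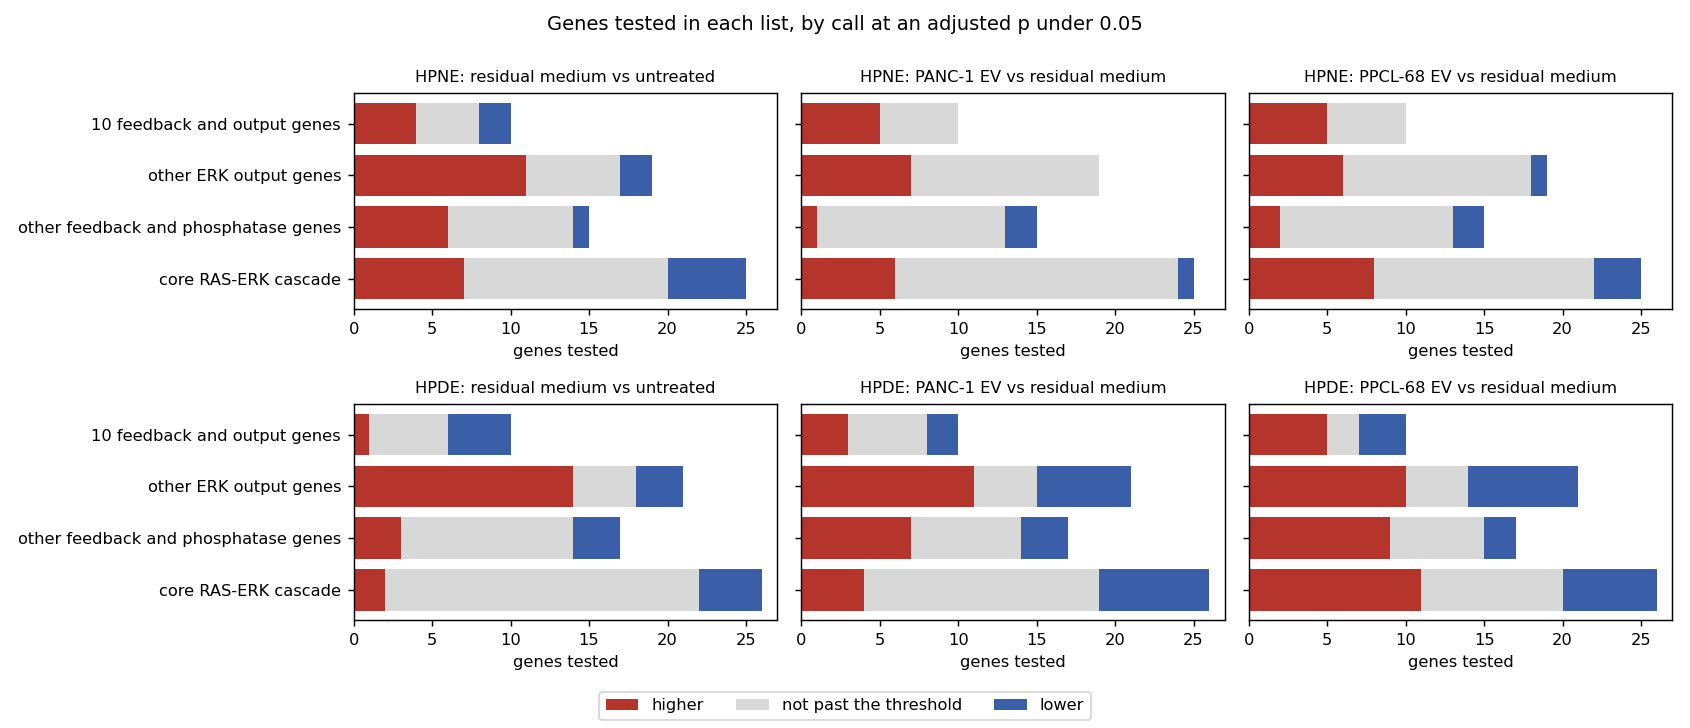
Number of genes tested in 4 gene lists that were higher (red), lower (blue) or not past an adjusted p of 0.05 (grey), in 3 comparisons of each line. With PANC-1 EVs in HPNE the 10 genes and the 19 other output genes have no blue segment, and in HPDE every list has one.

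Other genes of the pathway were taken from lists drawn up by role, also with earlier results of these data known. Of 22 other ERK output genes, 21 were tested in HPDE and 19 in HPNE. For this and the next lists, the shares of all genes tested that passed were 63.3% with PANC-1 EVs, 67.7% with PPCL-68 EVs and 20.0% with residual medium in HPDE, and 24.2%, 39.9% and 43.9% in HPNE. In HPDE 11 rose and 6 fell with PANC-1 EVs, and 10 rose and 7 fell with PPCL-68 EVs (17 of 21 in each). UPP1, uridine phosphorylase, led them, at 187 ± 23.2 FPKM in residual medium, 732 ± 34.0 with PANC-1 EVs and 1391 ± 78.2 with PPCL-68 EVs, and EMP1, a membrane protein, fell by 0.99 and 0.83. In HPNE 7 rose and 0 fell with PANC-1 EVs, among them the cytokine LIF (1.30 ± 0.26) and EREG, a ligand of the epidermal growth factor receptor (1.14 ± 0.25). With PPCL-68 EVs 6 rose and 1 fell, the urokinase receptor gene PLAUR (-0.53 ± 0.12). In residual medium against untreated cells 11 rose and 2 fell in HPNE, with LIF up by 2.67, and 14 rose and 3 fell in HPDE, with LIF up by 1.55. Median differences of the list in these 3 comparisons were 0.39, 0.11 and 0.93 for HPNE. For HPDE they were 0.16, 0.04 and 0.35.

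Among 20 other feedback and phosphatase genes, 17 tested in HPDE and 15 in HPNE, ERRFI1, an inhibitor of the epidermal growth factor receptor, rose in HPDE by 1.50 ± 0.06 with PANC-1 EVs and by 0.95 ± 0.06 with PPCL-68 EVs, and fell in HPNE by 0.78 ± 0.09 with PPCL-68 EVs. In HPDE 7 of the list rose and 3 fell with PANC-1 EVs (63.3% of all genes passed), and 9 rose and 2 fell with PPCL-68 EVs (67.7%), counts near those shares. In HPNE 1 rose and 2 fell, and 2 rose and 2 fell. DUSP1, the immediate-early phosphatase, rose by 1.04 ± 0.24 with PPCL-68 EVs in HPNE and by 0.75 ± 0.06 with PANC-1 EVs in HPDE. Its HPDE level was 19.9 ± 0.666 FPKM in residual medium, 34.3 ± 2.44 with PANC-1 EVs and 33.0 ± 2.18 with PPCL-68 EVs. In residual medium against untreated cells DUSP1 also rose, by 1.08 ± 0.24 in HPNE and 0.81 ± 0.06 in HPDE. SPRY1, another Sprouty gene, fell by 1.76 ± 0.28 in HPNE in residual medium, where 6 of the list rose and 1 fell. In HPDE 3 rose and 3 fell there.

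Of the 26 genes of the RAS to ERK cascade, 26 were tested in HPDE and 25 in HPNE. In HPDE 4 rose and 7 fell with PANC-1 EVs (63.3% of all genes passed), and 11 rose and 6 fell with PPCL-68 EVs (67.7%). The receptor gene EGFR stood at 37.4 ± 0.664 FPKM in residual medium, 91.2 ± 7.11 with PANC-1 EVs and 80.8 ± 5.90 with PPCL-68 EVs. The kinase gene BRAF rose by 0.88 ± 0.07 and 1.10 ± 0.07. Untreated HPDE cells held EGFR at 58.1 ± 2.04 FPKM, between these levels. Residual medium differed from untreated HPDE by -0.62 ± 0.06 for EGFR and by -0.27 ± 0.07 for BRAF. MAPK3, which encodes ERK1, fell by 0.33 ± 0.08 and 0.48 ± 0.08. In HPNE 6 rose and 1 fell with PANC-1 EVs, and 8 rose and 3 fell with PPCL-68 EVs. BRAF rose there by 0.65 ± 0.13 and 0.73 ± 0.13. MAP2K1, which encodes MEK1, fell by 0.57 ± 0.07 with PANC-1 EVs against residual medium. Residual medium itself differed from untreated HPNE by 0.77 ± 0.07 for MAP2K1. Its mean was 13.9 FPKM in untreated HPNE, 24.4 in residual medium and 16.1 with PANC-1 EVs, which lay between the other means. In residual medium against untreated cells 7 rose and 5 fell in HPNE, and 2 rose and 4 fell in HPDE. The list medians lay between -0.03 and 0.09 in the 4 vesicle comparisons.

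Proliferation genes moved in the same comparisons. Against residual medium, 12 of 12 fell in each line with PPCL-68 EVs. With PANC-1 EVs 12 of 12 fell in HPDE and 8 of 12 in HPNE. Of all genes tested 36.4% (HPDE) and 19.7% (HPNE) fell with PPCL-68 EVs, and 35.1% and 10.3% with PANC-1 EVs. In residual medium against untreated HPNE cells 11 of 12 rose (18.7% of all genes tested), and in HPDE 2 rose and 2 fell. The summed level of the list in HPNE was 175 to 571 FPKM in residual medium and 115 to 200 in untreated cells. It was 137 to 161 with PANC-1 EVs and 79.3 to 132 with PPCL-68 EVs. Against untreated HPNE cells 0 of 12 passed with either source (21.1% and 42.5% of all genes tested passed). In HPDE 12 of 12 fell against untreated cells with each source (60.6% and 66.3% passed). The list medians were -0.62 and -1.002 for PANC-1 and PPCL-68 EVs in HPDE, -1.47 and -2.05 in HPNE, and 1.68 for residual medium in HPNE. Their part in the changes of the feedback and output genes was not tested.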

How the data were processed

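The authors deposited 1 table per library with an FPKM value for each gene, beside gene length, position and type, per the file headers. The submitters' processing notes name hg19, CASAVA, STAR, HTSeq and DESeq2; their roles and the annotation release are not given in the sources used here. The kit kept no strand. Every FPKM value times gene length came out as a whole number of reads within 0.02, which gave the reads assigned.

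limma 3.58.1 (R 4.3.3; lmFit, eBayes with trend) was fitted on log2(FPKM + 1) to the 12 libraries of a line, with 8 residual degrees of freedom, for genes of mean FPKM at least 1. Levels and responses of the lines were compared in 1 fit of all 24. Tests were two-sided, with Benjamini-Hochberg adjustment over all genes tested and a threshold of 0.05. The log2 scale understates changes of low genes. Scripts were tested on simulated data. Alternatives were a pseudocount of 0.1, no filter, size factors, the compared groups alone, a replicate block, voom on recovered reads, and omitted libraries. The 10 genes, the other lists and the alternatives were chosen with earlier results of these data known. Named list genes were, per comparison and list, the largest changes past the threshold in each direction, up to 2. Likeness to DUSP6 was Pearson's r over 12 libraries, the top 5 being named. No label says that replicate numbers pair samples. Over all genes, deviations from the group mean of same-numbered libraries correlated at 0.565, 0.292 and 0.500 between the vesicle sources in HPNE, where the blocked value is given, and in no other pair of groups were all 3 over 0.1. The 3 deviations of a group sum to 0, so these correlations are not independent and do not show that the numbers pair samples.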

Additional observations from a re-analysis of the deposited data

Results flagged for a closer look

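Each value here is the HPDE response minus the HPNE response on the log2(FPKM + 1) scale, which passed limma's test of that difference across all 24 libraries (adjusted p under 0.05).

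For PANC-1 EVs against residual medium the phosphatase genes differed by -1.65 (DUSP4), 1.15 (DUSP5) and -0.97 (DUSP6), the upstream inhibitors by -0.62 (SPRY2), -0.33 (SPRED1) and -0.56 (SPRED2), ETV5 by -0.64 and PHLDA1 by 1.05. SPRED1 was not past the threshold in 7 of 24 single-library omissions (adjusted p up to 0.089), without the filter (0.0654), with size factors (0.0625) or with voom (0.0674). For PPCL-68 EVs the differences were -0.97 (DUSP4), 0.97 (DUSP5), -1.13 (DUSP6), -0.80 (SPRY2), -0.34 (SPRED2) and -0.50 (ETV4). SPRED2 was not past the threshold in 7 of 24 omissions or with the replicate block (adjusted p = 0.0568), without the filter, with the compared groups alone, with size factors or with voom.

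For residual medium against untreated cells the differences were 1.13 (DUSP4), -1.50 (DUSP5), -1.24 (DUSP6), 0.42 (SPRED1) and -0.35 (ETV4). ETV4 was not past the threshold without HPNE residual-medium replicate 2 or HPNE untreated replicate 1. Each vesicle response and the residual-medium response share the residual-medium libraries, so a low value there enters them with opposite signs.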

How the results depend on the processing

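Of 2400 values for a gene with 1 library left out, 2277 stayed on the same side of the threshold (36 of them changed sign with neither value past it), 88 lost it and 35 gained it. Of 1060 under the other settings 986 stayed (14 with such a sign change), 30 lost it, 43 gained it and 1 reversed, SPRED2 between untreated lines (-0.050 with voom). Without the 4 HPNE libraries apart, the genes called rose from 5 to 10 for PANC-1 EVs and from 5 to 8 for PPCL-68 EVs against residual medium, from 5 to 9 for PANC-1 EVs against untreated cells, from 1 to 5 between vesicle sources, and from 5 to 8 for the line difference in the residual-medium response. Without the filter they fell from 6 to 3 for HPNE residual medium, from 8 to 5 for the line difference with PANC-1 EVs, and from 1 to 0 between sources in HPNE. Between sources in HPNE there were 2 with size factors and 0 with the replicate block, which by limma is the count beside 1 in the unblocked fit. Leaving out 1 library gave 3 to 6 for HPNE residual medium, 5 to 8 for PANC-1 EVs against untreated HPNE, 0 to 1 between sources in HPNE, and 3 to 5 for HPDE residual medium. Beyond the spread that dropping the libraries apart narrows by choice, the cause of these changes was not tested. Same-numbered libraries of 2 groups (18 pairs a line) correlated over 0.1 in 1 pair in HPDE (-0.246 to 0.150) and in 9 in HPNE (-0.513 to 0.565). All 3 pairs did so only between the vesicle sources in HPNE, where the 3 values are not independent and do not show pairing. Elsewhere the numbers were not taken as pairs. Amplified reads are not independent molecules, and counts cover counting error only.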
